A study of Oryza sativa with 12 samples.

Results

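The leaf transcriptome of the introgression line IL22 was compared with that of its recurrent parent OLESA in plants that received no salt. The comparison was between 3 libraries of IL22 control and 3 of OLESA control, out of the 12 RNA-Seq libraries of the study, and covered all 36844 features of the deposited table of raw counts. All 12 libraries shared the filter on low counts and the estimate of the spread between replicates. Genes on Chromosomes 1 and 3, recognised by the chromosome number in the locus ID, were kept apart from genes on the other chromosomes. Of 20760 features with enough counts to be tested, 5778 were on Chromosomes 1 and 3 (3020 and 2758 genes), 14901 were on the other chromosomes and 81 had no locus ID.

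IL22 is a BC3F4 line that carries segments of FL478, a salt-tolerant *indica* rice with the *Saltol* locus, in the genome of OLESA, a salt-sensitive *japonica* cultivar. The paper places most *indica* genes of IL22 in large segments of Chromosomes 1 and 3, and a few on most of the remaining chromosomes. The set of other chromosomes can therefore include some donor genes. Both IL22 control and OLESA control plants spent 7 days of pregermination in water and 7 days in hydroponic Yoshida solution, with no NaCl added. The other 6 libraries, IL22 salt and OLESA salt, came from plants raised in the same way and kept at 80 mM NaCl for 24 h. Their levels are not part of the difference between IL22 control and OLESA control, but they contributed to the filter and to the spread. Each of the 3 replicates per group pooled leaves of 4 plants. IL22 is 1 line, so an effect of the *indica* segments and one of any other difference that this line has from OLESA cannot be told apart. The libraries of the parent are labelled PL12 and were taken as OLESA, the parent in the study's RNA-Seq design.

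Backcrossing replaces most of a donor genome by that of the recurrent parent, and what remains of the donor sits in blocks of neighbouring genes. *Saltol* lies on Chromosome 1 and is known for its role in keeping the ratio of Na+ to K+ low in rice shoots. A donor allele can differ from the recurrent allele in its level of expression, or the gene can be missing from 1 of the genomes, and fragments of a donor allele that has diverged can also fail to align to the *japonica* gene models on which the counts were made. In a table of counts these cases look alike, and in bulk leaf tissue fewer cells of a type and less RNA per cell cannot be told apart either.

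Total counts ran from 12861373 to 20034664 in IL22 control (median 16221405) and from 14594645 to 23578477 in OLESA control (median 15070629). Chromosomes 1 and 3 took 27.7, 28.4 and 28.7% of the counts in IL22 control replicates 1, 2 and 3, and 27.8, 27.5 and 27.6% in those of OLESA control. The median log2 fold change (FC) of all tested features, IL22 minus OLESA, was 0.01. No table at hand paired the locus IDs with gene names, so leaf markers could not be checked and genes are described by chromosome, order along it and level.

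The libraries of the 2 genotypes were first set against each other in pairs, by the root mean square difference of log2 CPM (counts scaled to library size) over genes. On Chromosomes 1 and 3, IL22 replicate 1 was at 0.83 and 0.85 from the other IL22 replicates and at 0.91 to 0.97 from the OLESA replicates. IL22 replicates 2 and 3 were at 0.64 from each other and at 1.09 to 1.18 from the OLESA replicates, while the OLESA replicates were at 0.53 to 0.69 from one another. Libraries of the same genotype were thus closest to each other on these chromosomes. On the other chromosomes, IL22 replicates 2 and 3 were again close to each other (0.65) and farther from OLESA (0.80 to 0.95). IL22 replicate 1, however, was at 0.84 and 0.87 from replicates 2 and 3 of its own genotype and at 0.52 to 0.65 from the OLESA replicates, a distance within or below that among the OLESA replicates (0.54 to 0.71).

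**Figure D1:**
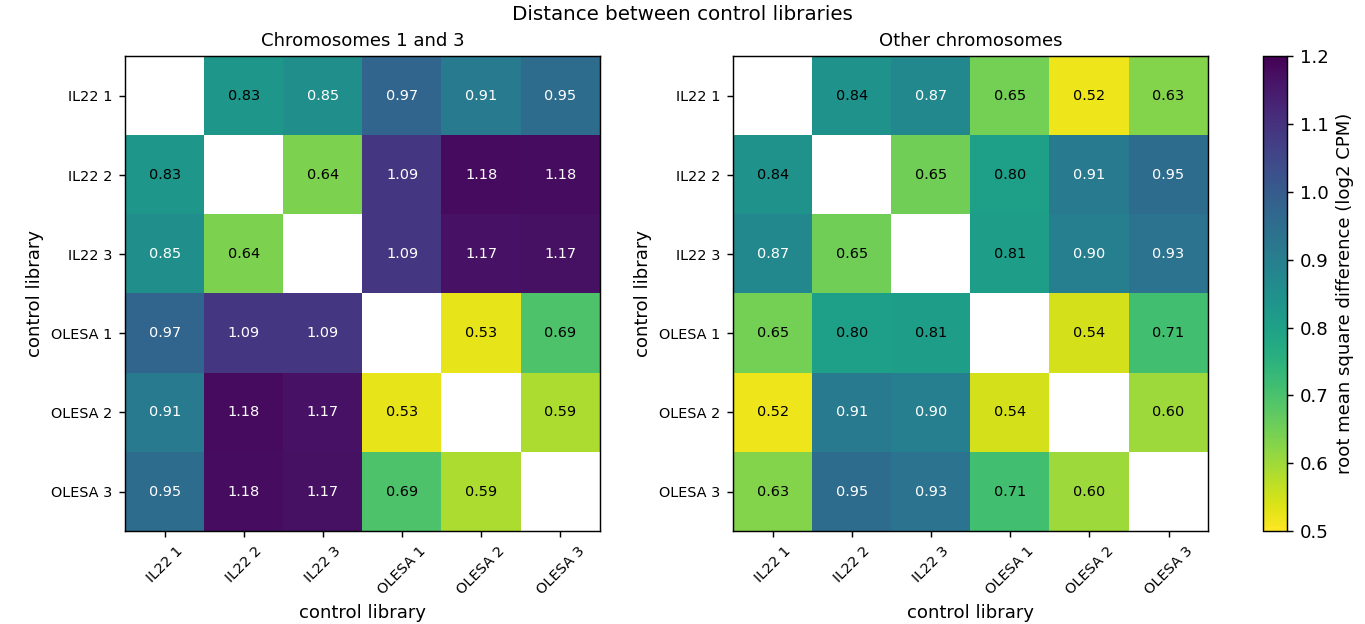
Root mean square difference of log2 CPM between each pair of the 6 control libraries, over 5778 genes on Chromosomes 1 and 3 (left) and 14901 genes on the other chromosomes (right). Over all genes of Chromosomes 1 and 3 together, IL22 replicate 1 lies nearer to IL22 replicates 2 and 3 than to OLESA (0.83 and 0.85 against 0.91 to 0.97). On the other chromosomes it lies nearer to OLESA than to IL22 replicates 2 and 3 (0.52 to 0.65 against 0.84 and 0.87).

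Single genes showed the same standing of replicate 1. Of the genes on the other chromosomes, 655 (4.40%) of IL22 replicate 1 were more than 1 log2 unit from the OLESA control mean, whereas 2739 (18.4%) of replicate 2 and 2648 (17.8%) of replicate 3 were. On Chromosomes 1 and 3 these numbers were 446 (7.72%), 1222 (21.1%) and 1177 (20.4%). IL22 replicate 1 also had the most counts of its group (20034664, against 12861373 in replicate 2 and 16221405 in replicate 3). It had 25777 features with counts, against 23129 and 23979 in replicates 2 and 3 and 24577 to 25953 in OLESA control. What set replicate 1 apart was not tested. The results below include this library unless stated otherwise, and values without it are given beside the counts of DEGs, their sizes, their position and their levels.

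Genes differentially expressed between the genotypes (DEGs) were called with edgeR as genes with a log2 FC larger than 0.5 in size and a Benjamini-Hochberg adjusted p that did not exceed 0.05. Over all tested features 286 were DEGs, which is 1.38%, with 129 up-regulated (0.621%) and 157 down-regulated (0.756%) in IL22. Of the 5778 genes on Chromosomes 1 and 3, 214 were DEGs (3.70%), 82 up-regulated and 132 down-regulated. Of the 14901 genes on the other chromosomes, 72 were DEGs (0.483%), 47 up-regulated and 25 down-regulated. Chromosome 1 held 175 DEGs (63 up-regulated and 112 down-regulated) and Chromosome 3 held 39 (19 and 20), and each of the other chromosomes held between 1 (Chromosome 12) and 12 (Chromosome 7). Without IL22 replicate 1, by contrast, 21.5% of the tested genes on Chromosomes 1 and 3 and 17.9% of those on the other chromosomes were DEGs. None of the 81 features without a locus ID was a DEG in this edgeR test, although 9 of them passed at an unadjusted p with the same log2 FC, 1 by DESeq2 and 1 by the likelihood ratio test.

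At the unadjusted p of 0.05 and the same log2 FC, 3241 features passed (15.6%, with 9.93% up-regulated and 5.68% down-regulated), of which 1082 were on Chromosomes 1 and 3 (583 up-regulated and 499 down-regulated) and 2150 on the other chromosomes (1471 and 679). The 2 sets of chromosomes thus stood closer at the unadjusted p (18.7% and 14.4% of their tested genes) than at the adjusted one. Without IL22 replicate 1, 32.4% and 28.7% of the tested genes of these sets passed at the unadjusted p. The values of the 3 IL22 libraries did not overlap those of the 3 OLESA libraries in 15.9% of all tested features, in 19.2% of the genes on Chromosomes 1 and 3 and in 14.6% of those on the other chromosomes. Log2 FC had a median size of 0.33 on Chromosomes 1 and 3 and 0.31 on the other chromosomes, and was 0.47 and 0.45 without IL22 replicate 1. With genes at 0 in 1 genotype set to a bound of 3 counts over the group, 98 genes (0.472%) had a log2 FC beyond 4, 88 of them on Chromosomes 1 and 3 and 10 on the other chromosomes.

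The down-regulated DEGs of Chromosomes 1 and 3 had the largest changes. Their median log2 FC was -4.23 (3.86 in size with the 43 of them that had no count in IL22 set to their bound), and their median level was 0.501 CPM in IL22 against 12.2 CPM in OLESA. In IL22, 77 of the 132 were under 1 CPM. The 82 up-regulated DEGs of these chromosomes had a median log2 FC of 1.96 and a median level of 18.8 CPM in IL22 against 4.01 CPM in OLESA, and 10 of them had no count in OLESA. The changes were smaller on the other chromosomes, where the 47 up-regulated DEGs had a median log2 FC of 1.59, with median levels of 20.8 CPM in IL22 and 6.26 CPM in OLESA. The 25 down-regulated DEGs had a median log2 FC of -1.11 at 32.4 CPM in IL22 and 83.1 CPM in OLESA, and 1 of them had no count in IL22. The DEGs called without IL22 replicate 1 were smaller in their median change and alike on both sets of chromosomes, with median log2 FC of 1.13 and -1.01 on Chromosomes 1 and 3 (up- and down-regulated) and of 1.14 and -0.89 on the other chromosomes.

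The DEGs of Chromosomes 1 and 3 lay in blocks. Tested genes were put in the order of their locus IDs and divided into windows of 50 genes. Among the 302 windows of the other chromosomes, 245 had no DEG and none had more than 4. On Chromosome 1, 14 of 61 windows had more than 4, with up to 19 in a window, and these 14 held 136 of its 175 DEGs. On Chromosome 3, 3 of 56 windows had more than 4, with up to 9 in a window, and held 20 of its 39 DEGs. Without IL22 replicate 1 the contrast was weaker. The windows of the other chromosomes then had up to 19 DEGs (median 9), those of Chromosome 1 up to 32 (median 10) and those of Chromosome 3 up to 24 (median 9), and only 4 windows of Chromosome 1 and 1 of Chromosome 3 had more than 19. With any of the other 5 control libraries left out, the windows of the other chromosomes had at most 2 or 3 DEGs and those of Chromosome 1 up to 14 to 17.

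**Figure D2:**
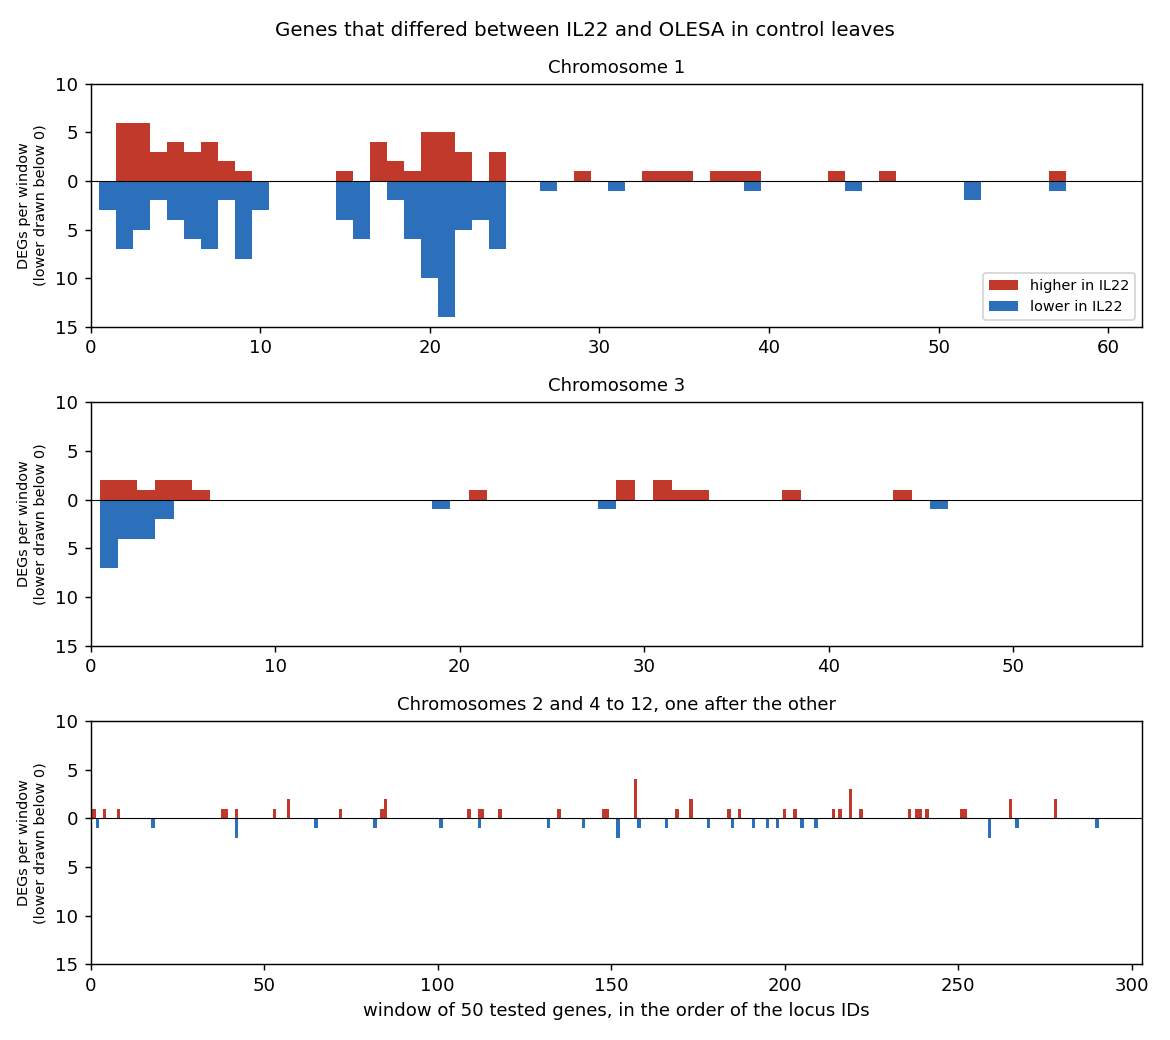
Number of DEGs per window of 50 tested genes along Chromosome 1, Chromosome 3 and the remaining chromosomes laid end to end, with DEGs up-regulated in IL22 drawn above 0 and down-regulated DEGs below. Windows with more than 4 DEGs form 2 groups among the first 24 of 61 windows of Chromosome 1. They form 1 group among the first 5 of 56 windows of Chromosome 3. The groups also hold or border windows with 4 or fewer. No window of the other chromosomes has more than 4 DEGs in this fit of all libraries.

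Windows with more than 4 DEGs were grouped in 3 stretches, which also held windows with 4 or fewer. The limits of the stretches were set from these counts, and they are given as a description. Tested genes 1 to 500 of Chromosome 1 held 76 DEGs (29 up-regulated, 47 down-regulated, 15.2% of its genes). The following 200 genes held none by edgeR, with 28 passing at an unadjusted p, 11 by DESeq2 and 8 by the likelihood ratio test. Genes 701 to 1200 of Chromosome 1 held 82 DEGs (24 up-regulated, 58 down-regulated, 16.4%), and the 1820 genes after them held 17 (0.934%). On Chromosome 3, the first 250 genes held 26 DEGs (9 up-regulated, 17 down-regulated, 10.4%) and the other 2508 held 13 (0.518%). Together the 3 stretches had 184 DEGs among 1250 genes (14.7%), 62 up-regulated and 122 down-regulated, and 1066 genes that were not DEGs. The rest of Chromosomes 1 and 3 had 30 DEGs among 4528 genes (0.663%), near the 0.483% of the other chromosomes, and there 20 were up-regulated and 10 down-regulated. Without IL22 replicate 1, DEGs were 33.9% of the tested genes in the stretches (424 of 1250), 18.5% in the rest of Chromosomes 1 and 3 and 18.2% on the other chromosomes, and the 200 genes between the stretches of Chromosome 1 held 24. With another control library left out, the stretches held 128 to 153 DEGs, the rest of Chromosomes 1 and 3 held 8 to 15 and the 200 genes between held 0 to 2.

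Inside the stretches, the median size of the log2 FC over all tested genes was 0.48, against 0.31 on the other chromosomes. The share of DEGs in the stretches was 16.1% for genes with a mean log2 CPM under 2 (63 of 391), 17.5% from 2 to 5 (92 of 527) and 8.73% above 5 (29 of 332). The shares of the other chromosomes, in the same order, were 0.166% (7 of 4216), 0.545% (37 of 6784) and 0.718% (28 of 3901). Differences between level classes were not tested. The median standard error was 0.61, 0.26 and 0.19 in the stretches, and 0.53, 0.25 and 0.19 on the other chromosomes. Without IL22 replicate 1, the shares were 28.4, 39.0 and 32.3% in the stretches and 6.10, 20.2 and 27.9% on the other chromosomes.

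The standing of IL22 replicate 1 also changed at the borders of the stretches. Over the 1250 genes in the stretches, this library was at a root mean square difference of 0.87 and 0.89 from IL22 replicates 2 and 3 and at 1.71 to 1.75 from the OLESA replicates. Over the 4528 other genes of Chromosomes 1 and 3, it was at 0.82 and 0.84 from IL22 replicates 2 and 3 and at 0.49 to 0.60 from OLESA. These genes thus gave the same order of distances as the other chromosomes.

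Some genes had counts in 1 genotype only. With at least 10 counts in each of the 3 control libraries of a genotype and 0 in all 3 of the other, 51 of 36844 features (0.138%) qualified, and all 51 were on Chromosomes 1 and 3. In IL22 only, 9 genes had counts, all on Chromosome 1, at 1.08 to 19.4 CPM (median 2.2). In OLESA only, 42 genes had counts, 36 on Chromosome 1 and 6 on Chromosome 3, at 0.890 to 130.4 CPM (median 4.71). The other chromosomes had no such gene, although 13192 of their features had at least 10 counts in all IL22 control libraries and 13244 in all OLESA control libraries. On Chromosomes 1 and 3, 5061 and 5163 features had such counts.

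With 3 counts over a group as the floor, the 9 genes were at least 18.8-fold to 316-fold higher in IL22 (median bound 35.6-fold), and the 42 genes were at least 13.9-fold to 2079-fold lower in IL22 (median bound 74.5-fold). The stretches held 50 of the 51 genes, and 36 of the 51 had another of them within 5 tested genes along the chromosome. The 4 OLESA-only genes above 50 CPM were all in the same window of 50 genes, window 24, the last one of the second stretch of Chromosome 1. Of the 51 genes, 50 were also DEGs, but both calls used the same control libraries, so this overlap was largely set by the rule. A gene listed at 0 was not detectable at this depth on the *japonica* gene models, which does not show that the plant lacks the gene or its transcript.

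The salt libraries, which had no part in the choice of these genes, showed the same presence and absence in most cases. Of the 42 OLESA-only genes, 36 had no count in any IL22 salt library, with 10 counts in all over the other 6 and at most 4 for a gene, and 39 had at least 10 counts in every OLESA salt library. Of the 9 IL22-only genes, 8 had at least 10 counts in every IL22 salt library and 8 had none in OLESA salt, where the remaining one had a single count.

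The same kind of gene served to check each control library by genes that were chosen without it. Left out of the choice, IL22 replicate 1 had 0 counts for 42 of 46 OLESA-only genes and at most 4 for the others, and at least 24 counts for all 9 IL22-only genes. IL22 replicates 2 and 3 each had 0 counts for 42 of 45 such OLESA-only genes, with at most 9 and 7 counts for the others. OLESA replicates 1, 2 and 3 had 0 counts for 9 of 11, 9 of 10 and 9 of 12 IL22-only genes, with at most 6 counts. At these genes, all 6 control libraries thus carried the counts of the genotype on their label, including IL22 replicate 1. With a library left out, at most 2 of the genes chosen were on the other chromosomes, so the check hardly covers those.

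A total of 4 genes were taken as examples by 1 rule, the largest up- and down-regulation on Chromosomes 1 and 3 and on the other chromosomes. The rule asked for DEGs whose log2 CPM averaged at least 3, whose groups did not overlap and which had at least 1 count in all 6 libraries. They were selected for size and do not stand for the other DEGs. The files do not pair these IDs with gene names, so their functions are not given.

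On Chromosome 1, Os01g0148100 was at 20.4, 10.3 and 12.7 CPM in IL22 replicates 1, 2 and 3, against 0.0681, 0.0713 and 0.0502 CPM in OLESA. The OLESA values were a single count in each library, and the groups were far apart. The ratio of IL22 to OLESA, from 742 counts against 3, was 249 with a 95% counting interval of 84.8 to 1210. The log2 FC was 7.71 ± 0.44 (SE, edgeR adjusted p = 2.12e-06). In the salt libraries, this gene had 402, 273 and 207 counts in IL22 salt and 0 in each OLESA salt library.

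Os01g0188900, also on Chromosome 1, had 1, 2 and 1 counts in IL22 and 319, 339 and 363 counts in OLESA. All 3 IL22 libraries were thus close to 0. The ratio of OLESA to IL22 was 254, with a 95% counting interval of 98.8 to 933, and the log2 FC was -7.87 ± 0.36 (SE, edgeR adjusted p = 7.13e-08). Under salt it had 3, 4 and 1 counts in IL22 and 310, 206 and 384 counts in OLESA, with a log2 FC of -6.68.

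Outside Chromosomes 1 and 3, Os08g0367300 was at 40.2, 66.4 and 61.4 CPM in IL22 and at 1.57, 0.571 and 0.854 CPM in OLESA. Its log2 FC was 5.81 ± 0.38 (SE, edgeR adjusted p = 1.31e-06). IL22 replicate 1 was the lowest of its group but stood far above every OLESA library. The salt libraries gave 67.8, 60.5 and 54.9 CPM in IL22 and 1.77, 1.18 and 0.669 CPM in OLESA, with a log2 FC of 5.68 (edgeR adjusted p = 1.34e-06).

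Os02g0770800 was at 30.8, 7.70 and 10.8 CPM in IL22 and at 134.5, 143.1 and 530.7 CPM in OLESA. Its log2 FC was -4.02 ± 0.81 (SE, edgeR adjusted p = 0.0255). OLESA replicate 3 was well above the other OLESA libraries. That the groups did not overlap was a condition of the choice. The edgeR adjusted p was 0.155 without IL22 replicate 2, 0.146 without IL22 replicate 3 and 0.100 without OLESA replicate 3, over a range of 0.00424 to 0.155 with each library left out in turn. Under salt the gene was at 14.6, 3.74 and 40.2 CPM in IL22 and 43.1, 78.0 and 77.7 CPM in OLESA, with a log2 FC of -1.77 that did not pass (edgeR adjusted p = 0.204).

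**Figure D3:**
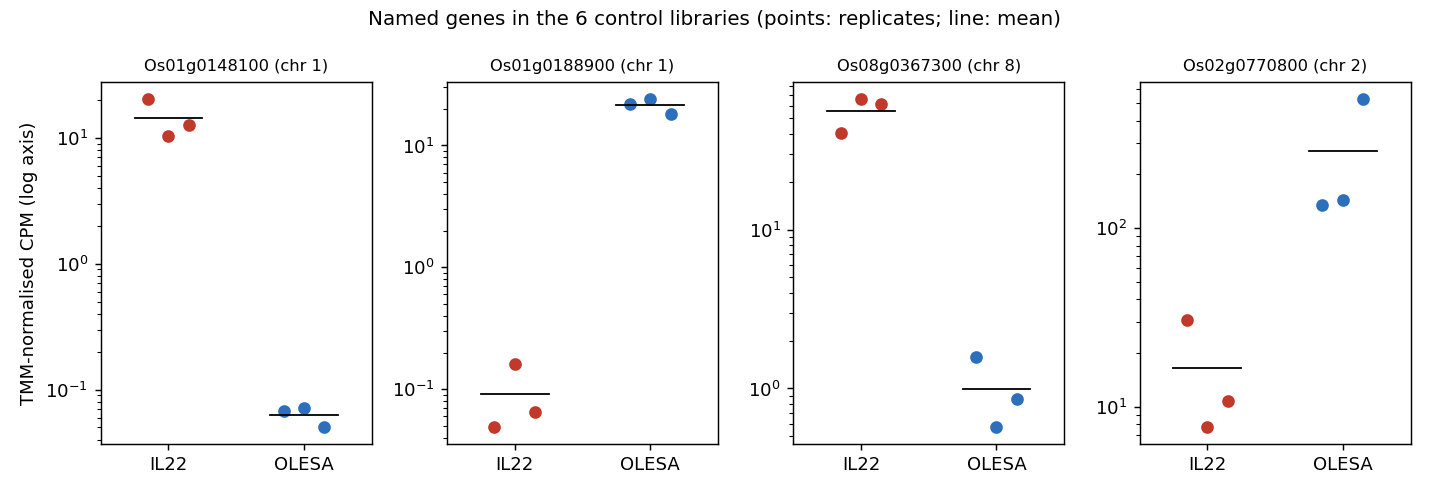
TMM-normalised CPM (log axis) of the 4 named genes in the 3 IL22 control and 3 OLESA control libraries, with points for replicates and a line at the mean. In each panel the IL22 and OLESA values do not overlap, which the rule of choice required. The widest spread within a group is that of Os02g0770800, with OLESA at 134.5, 143.1 and 530.7 CPM.

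The genotype difference of the control DEGs was then read between IL22 salt and OLESA salt. The libraries compared are other ones, although the salt libraries had a share in the filter and the spread by which the control DEGs were called. Of the 214 DEGs on Chromosomes 1 and 3, 192 (89.7%) had the same direction between IL22 salt and OLESA salt, 143 of them were also DEGs there in that direction, and 2 were DEGs in the opposite direction. Of the 72 DEGs on the other chromosomes, 34 (47.2%) had the same direction, 10 were DEGs in that direction and 8 in the opposite one. Over all tested features, 38.9% had the same direction in both comparisons (41.7% on Chromosomes 1 and 3 and 37.8% on the others), and 2.85% were DEGs between the genotypes under salt. With the 6 control and the 6 salt libraries fitted separately, 0.794% of features were DEGs in control and 7.51% in salt. Of the 137 control DEGs on Chromosomes 1 and 3 in these separate fits, 133 were also tested in salt, where 129 (97.0%) had the same direction and 113 were DEGs in that direction, against 40.7% with the same direction over all genes tested there. On the other chromosomes, 12 of 19 (63.2%) had the same direction and 8 were DEGs in that direction, against 37.1% over all genes tested.

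The sizes of the changes followed the same division. The median log2 FC of the up-regulated DEGs on Chromosomes 1 and 3 was 1.96 in control and 1.46 in salt, and that of the down-regulated DEGs was -4.23 in control and -3.95 in salt. On the other chromosomes, the up-regulated DEGs had a median of 1.59 in control and -0.08 in salt, and the down-regulated DEGs -1.11 in control and -0.06 in salt. In the 3 stretches, 179 of 184 DEGs had the same direction under salt and 138 were DEGs there in that direction. Over all tested genes of the stretches, 59.4% had the same direction. In the rest of Chromosomes 1 and 3, 13 of 30 DEGs had the same direction, against 36.8% of all genes tested there.

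**Figure D4:**
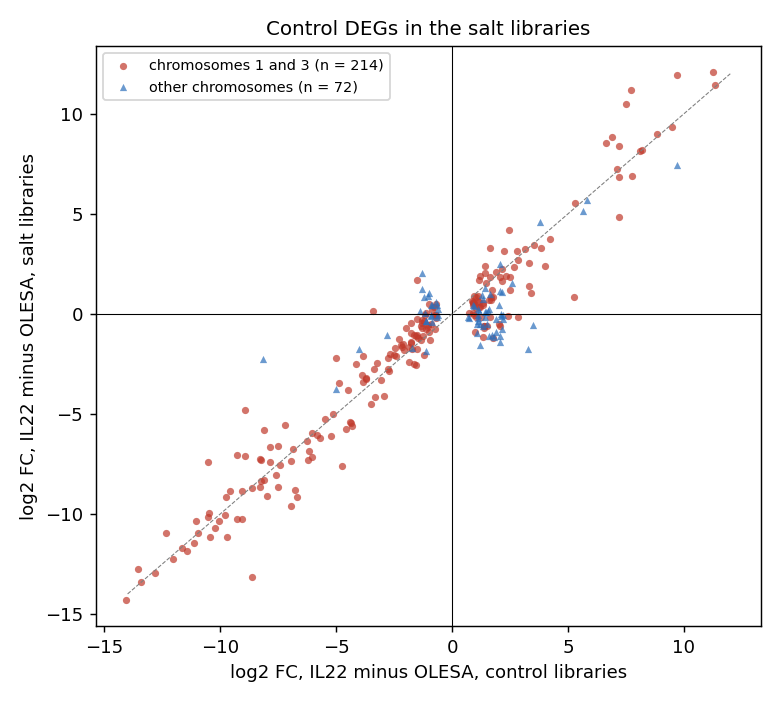
Log2 FC (IL22 minus OLESA) of each control DEG in the control libraries (x axis) and in the salt libraries (y axis), with 214 DEGs of Chromosomes 1 and 3 as circles and 72 DEGs of the other chromosomes as triangles. Most circles lie near the dashed line of equal values, with 192 of 214 on the same side of 0 in both, while the triangles scatter around 0 on the y axis, with 34 of 72 on the same side.

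Each library was also set against the OLESA control mean. For the 82 up-regulated DEGs of Chromosomes 1 and 3, the median log2 difference was 1.63, 2.01 and 1.97 in IL22 control replicates 1, 2 and 3, 1.51 to 1.59 in IL22 salt, and 0.03 to 0.23 in OLESA salt. For the 132 down-regulated DEGs it was -3.11, -3.42 and -3.12 in IL22 control, -3.44 to -3.18 in IL22 salt and -0.21 to -0.09 in OLESA salt. The DEGs were chosen from the control libraries, so that the genotypes stood apart in control followed from the choice. By these medians the IL22 salt libraries also stood apart from the OLESA salt libraries. Even so, 15 of the 82 and 7 of the 132 had the opposite direction between IL22 salt and OLESA salt.

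The 47 up-regulated DEGs of the other chromosomes had a median log2 difference of 0.96, 1.84 and 1.81 in IL22 control, with replicate 1 the lowest. It was 0.79 to 0.97 in IL22 salt and 0.58 to 0.85 in OLESA salt. The 25 down-regulated DEGs were at -0.80, -1.27 and -1.14 in IL22 control, at -1.03 to -0.83 in IL22 salt and at -1.06 to -0.84 in OLESA salt. By these medians the libraries of IL22 control, IL22 salt and OLESA salt all lay on the same side of OLESA control. Single genes did so less uniformly. Of the 47, 44 to 46 were on that side in IL22 salt libraries and 32 to 43 in OLESA salt libraries. Of the 25, 20 to 21 and 21 to 23 were. The OLESA control libraries were also part of the choice of the DEGs, which favours such a shift, and its size against that effect was not tested.

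**Figure D5:**
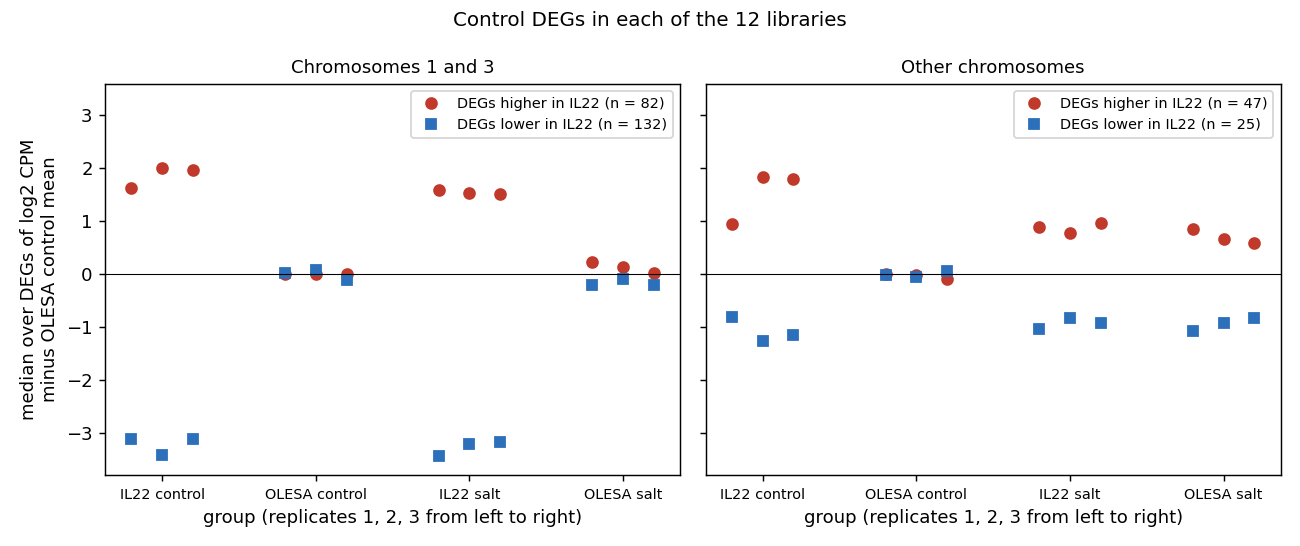
Median over DEGs of the log2 CPM of each library minus the OLESA control mean, for Chromosomes 1 and 3 (left) and the other chromosomes (right), with up-regulated DEGs as circles and down-regulated DEGs as squares. On the left the OLESA salt libraries stay at -0.21 to 0.23, and on the right they lie at 0.58 to 0.85 and at -1.06 to -0.84, near the IL22 salt libraries.

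The interaction of genotype and salt tests whether the genotype difference itself differed between control and salt. It passed at an edgeR adjusted p of 0.05 in 22 of the 214 DEGs on Chromosomes 1 and 3 and in 33 of the 72 on the other chromosomes, against 4.99% of all tested features. The control libraries that chose the DEGs enter this test, which favours a difference, so these counts are a description. Without IL22 replicate 1, the interaction passed in 23.3% of all tested features, in 22.4% of the DEGs on Chromosomes 1 and 3 (48) and in 66.7% of those on the other chromosomes (48). With any of the other control libraries left out, it passed in 0.0891 to 3.78% of all features, in 1 to 18 of the 214 DEGs and in 8 to 31 of the 72.

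The number of DEGs depended on IL22 replicate 1. Without it, edgeR called 4000 of 21213 tested features (18.9%), with 1267 on Chromosomes 1 and 3 (21.5%, 598 up-regulated and 669 down-regulated) and 2727 on the other chromosomes (17.9%, 1515 up-regulated and 1212 down-regulated). All 214 and all 72 DEGs were among them. Without IL22 replicate 2 or 3, 140 and 147 DEGs were called on Chromosomes 1 and 3 and 18 and 23 on the other chromosomes. Without OLESA replicate 1, 2 or 3, the counts were 168, 137 and 157 on Chromosomes 1 and 3 and 57, 24 and 28 on the other chromosomes. The count of Chromosomes 1 and 3 thus varied less than that of the others over the 5 fits that kept IL22 replicate 1.

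Of the 214 DEGs on Chromosomes 1 and 3, 125 (58.4%) were called in all 6 of these fits, 40 up-regulated and 85 down-regulated. In the salt libraries, 122 of the 125 had the same direction and 110 were DEGs in that direction. On the other chromosomes, 15 of 72 (20.8%) were called in all 6 fits, 10 up-regulated and 5 down-regulated, of which 8 had the same direction under salt and 7 were DEGs in that direction.

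The genes called without IL22 replicate 1 were looked up in that library, which then had no part in their choice. Of the 1263 such genes on Chromosomes 1 and 3 that also passed the count filter in all libraries, replicate 1 was on the called side of the OLESA mean in 64.1%, and by more than 0.5 log2 units in 28.4%. Of the 2715 on the other chromosomes, it was on that side in 53.3% and by more than 0.5 log2 units in 9.65%. Between IL22 salt and OLESA salt, 34.6% of the 1263 and 16.6% of the 2715 had the direction called in control. Over all tested genes of these 2 sets, 41.7% and 37.8% had the same direction in the fit of all libraries. The fit of all libraries includes replicate 1, so these shares do not compare like with like. The share over all genes was not taken without replicate 1. The fit without replicate 1 sets IL22 replicates 2 and 3 alone against OLESA control. It also estimates the spread between replicates without that library. Why the count of DEGs rose was not tested. In replicate 1, only the minority of these genes given above were on the called side by more than 0.5 log2 units.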

How the data were processed

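The values that the authors deposited are fragment counts of each feature in each library, without normalization. According to the study's methods and the submitters' processing notes, stranded mRNA libraries were processed with bcl2fastq 2.20 and cutadapt 1.11, aligned to the *japonica* reference with STAR 2.5.2b and counted with featureCounts 1.5.1. The counting of fragments that match more than 1 gene is not stated in those sources, and near-identical copies are therefore uncertain.

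The analysis used edgeR 4.0.16 in R 4.3.3. filterByExpr (minimum count 10, minimum total 15) kept 20760 of 36844 features, and 6937 had no count in any library. All 12 libraries entered the fit (TMM scaling, quasi-likelihood test), with a mean for each group, and Benjamini-Hochberg adjustment ran over all tested features. SE was derived from the F statistic, log2 CPM used a prior count of 2, and intervals and floors cover counting error only. The steps were tested on simulated data. Replicates are separate sets of 4 plants per the study, and no batch is named. The example genes were taken by the rule given with them, limited to 2 IDs that rose and 2 that fell because 1 of 36844 IDs matched the reference at hand (assembly ASM3414082v1, another build). For that reason the gene lists prepared on salt-related functions and the leaf markers were not used, and the FPKM criterion of the study was not applied. The members, lists and windows were chosen with earlier results of these data known, and the stretches, level classes, distances within stretches, checks of left-out libraries and separate fits of control and salt libraries were chosen after the values were seen. Alternatives were RLE factors, TMM factors from features outside Chromosomes 1 and 3, DESeq2 1.42.0, the likelihood ratio test, other count filters, the 6 control libraries alone, a replicate block, a log2 FC beyond 1 and each control library left out.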

Additional observations from a re-analysis of the deposited data

Results flagged for a closer look

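The genotype difference of some control DEGs differed between control and salt by the test of the interaction (edgeR, adjusted p of 0.05), which passed in 22 of 214 DEGs on Chromosomes 1 and 3 and in 33 of 72 on the other chromosomes. Over all tested features the interaction passed in 4.99%. With IL22 control replicate 1 left out, the counts became 48 (22.4%) and 48 (66.7%), against 23.3% of all tested features, so the count on Chromosomes 1 and 3 was then near the share of all features. With OLESA control replicate 1 left out, they were 18 and 31, against 3.78% of all features. With any of the other 4 control libraries left out, they were 1 in each case on Chromosomes 1 and 3 and 8 to 10 on the other chromosomes, against 0.0891 to 0.156% of all features.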

How the results depend on the processing

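On Chromosomes 1 and 3, the 214 DEGs were 474 with DESeq2, 452 with the likelihood ratio test, 137 with the 6 control libraries alone and 137 to 1267 with a control library left out, and 163 to 300 under the other settings. On the other chromosomes, the 72 DEGs were 662 with DESeq2, 539 with the likelihood ratio test, 225 with no filter on low counts, 19 with the 6 control libraries alone and 18 to 2727 with a library left out, and 57 to 77 under the other settings apart from the block. Of the 72 DEGs, 65.3% were up-regulated, against 75.4% of the 57 beyond a log2 FC of 1 and 49.1% of the 57 called without OLESA replicate 1. The cause of these differences was not tested.

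The replicate numbers were not taken as pairs. The deviations of same-numbered IL22 and OLESA control libraries from their group means had correlations of -0.33, -0.20 and -0.05 across genes. Those of differently numbered libraries had correlations of -0.14 to 0.27. With 3 libraries per group, these values cannot decide whether same-numbered samples were handled together. With the replicate number as a block, 163 DEGs were called on Chromosomes 1 and 3 and 32 on the other chromosomes.

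The 51 genes with counts in 1 genotype alone became 66 with at least 5 counts (64 of them on Chromosomes 1 and 3), 66 with up to 3 counts allowed in the other genotype (63 of them) and 53 to 56 with a library left out, at most 2 of which were on the other chromosomes. Of the 4 named genes, 3 kept their call under all 14 alternatives, and Os02g0770800 lost it in 3. A gene with few counts in both genotypes cannot be placed at this depth.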
